A study of Homo sapiens with 17 samples.

Results

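The mRNAs of the DNA replication machinery were followed across the Input and the IPs of PABPN and PABPC in a Ribo-STAMP experiment. The 53 genes were taken by symbol from a list of origin licensing factors (15), replication fork components (33) and enzymes of nucleotide supply (5), and all 53 were found among the 18869 genes of the deposited table. In both IPs all 53 also reached an average TPM of 5 or more, so that every listed gene is described, beside the 9607 protein-coding genes (PCGs) of the table that met the same minimum and include the 53.

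Ribo-STAMP marks RNAs that ribosomes contact: the C-to-U editing enzyme APOBEC1 is fused to the small ribosomal subunit protein RPS2 (RPS2-STAMP), and APOBEC1 that is not fused to a ribosomal protein (Control-STAMP) gives the background. Both constructs were carried by HEK293T cells, an established human embryonic kidney line, after lentiviral integration, and were induced with 50 ng/ml doxycycline for 24 h before crosslinking with 0.1% formaldehyde. RNA was sequenced from the Input and from immunoprecipitates of PABPN, the mainly nuclear poly(A)-binding protein, and of its mainly cytoplasmic counterpart PABPC. RPS2-STAMP had 3 samples each of Input, PABPN IP and PABPC IP, and Control-STAMP had 3 of Input, 3 of PABPN IP and 2 of PABPC IP, which made 17 samples. The study's text describes both the IPs and the Input as cytoplasmic, while the sample labels state no fractionation.

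Values from these IPs are given below as with PABPN and with PABPC. For each gene and fraction the authors deposited 1 normalized EPKM (edits per kilobase of transcript, scaled to mapped reads, with the control background subtracted) and 1 average TPM that sums exonic and intronic reads. The values are pooled over replicates, so they come without SD, n or p-value, and no difference between fractions has a replicate check. Counts of reads or edits are absent from the files, the number of reads behind each gene's value is therefore unknown, and an EPKM of 0 says only that a gene is listed at 0. Cells were lysed in bulk, so presence of a transcript in fewer cells and less RNA per cell cannot be told apart. As a check of the cell line, NEFL and NEFM were present in the Input (26.9 and 8.998 TPM), PAX2 was low (0.797 TPM), and PTPRC and ALB had no row in the table used here. Values of genes with close copies or overlapping neighbours are less certain: 12 of the 53 have a named pseudogene (ORC1, POLD2, PCNA, RFC3, RFC5, RPA2, RPA3, FEN1, TIPIN, RRM2, TYMS and DUT), and 8 share over 10% of their span with other annotated genes (GINS4, POLA2, FEN1, RPA3, PRIM1, TYMS, LIG1 and POLE3). These overlaps refer to GENCODE release 44 and include genes on either strand, whereas the authors counted in a custom annotation made from release 34. Which bases of GINS4, POLA2, FEN1 and RPA3, each overlapped over nearly all of its span, entered the values is therefore not known.

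Replication starts when the origin recognition complex, CDC6 and CDT1 load the ring-shaped MCM2-7 helicase onto DNA in G1, a step called licensing. In S phase CDC45 and GINS activate the helicase, primase and the replicative polymerases copy both strands behind it, and a sliding clamp, its loader, a single-strand binding complex and fragment-joining enzymes complete the fork. Ribonucleotide reductase and the thymidylate enzymes feed the fork with deoxynucleotides, and transcription of many of these genes is controlled by E2F factors as cells pass from G1 into S phase.

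The letters that E2F factors are known to bind were searched in the promoters of the genes. Promoters came from RefSeq (GRCh38.p14; 250 bases before to 50 after the start site) and held an entry for 47 of the 53 genes. The motif was any of TTTCCCGC, TTTCGCGC, TTTGCCGC and TTTGGCGC on either strand. TTTCGCGC and its reverse complement can overlap and were then both counted. At least 1 match was found for 19 of the 47 replication genes (40.4%), for 478 of 7884 PCGs with an entry (6.06%) and for 908 of all 27305 promoters in the table (3.33%). A match is a string of letters and not a measured binding site. All 4 MCM2-7 genes with an entry held a match, as did 1 of 6 genes of the origin recognition complex. Windows of 30 bases around a match, read 5′ to 3′ on the strand of the gene with the matched letters in capitals, are given for the 4 MCM genes and, for comparison, for the licensing factor CDT1, the clamp PCNA and the nucleotide enzyme TYMS. They lie on hg38 at chr3:127598406-127598435, plus strand (MCM2), chr6:52284728-52284757, minus strand (MCM3), chr2:135876511-135876540, minus strand (MCM6), chr7:100101388-100101417, minus strand (MCM7), chr16:88803743-88803772, plus strand (CDT1), chr20:5126663-5126692, minus strand (PCNA) and chr18:657603-657632, plus strand (TYMS). Counted from the RefSeq start site as position 0, the matched letters begin at 6, -4, -86, -9, -35, -59 and -39 in the same order, so that those of MCM2 lie just inside the transcribed part and the others before it or across its start.
MCM2: aaccacttttcGCGCGAAAcctggttgttg
MCM3: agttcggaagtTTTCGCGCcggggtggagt
MCM6: ggtcaggtttgGCGCGAAAtctccagctcc
MCM7: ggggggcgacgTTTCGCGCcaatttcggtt
CDT1: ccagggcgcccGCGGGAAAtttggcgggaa
PCNA: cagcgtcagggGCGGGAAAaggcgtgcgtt
TYMS: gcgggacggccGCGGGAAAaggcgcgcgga
The 19 genes with a match had a median Input TPM of 59.6, against 35.4 for the 28 genes with an entry and no match. Both sets spanned a wide range, from 10.7 to 355 TPM and from 10.1 to 167 TPM. The centred ratios ran from -1.26 to 0.92 (PABPN IP) and from -1.24 to 0.42 (PABPC IP) with a match, and from -1.21 to 0.88 and from -0.997 to 0.51 without one. The medians were -0.67 and -0.45, against -0.46 and -0.26 without a match, and uncentred all 4 were above 0, at 0.46 and 0.54 with a match and 0.67 and 0.72 without.

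The bases around the start codon are shown for the genes with the highest editing with PABPC (CDT1, TK1 and MCM2) and for the pair with the highest editing with PABPN (RFC4 and POLE3), a choice made after their values were seen. The ATG is in capitals, with 9 bases before it and 3 after it, from the canonical transcripts of GENCODE release 44.
CDT1: tccgccgccATGgag
TK1: ggaggcgcaATGagc
MCM2: ggtactgctATGgcg
RFC4: tgaagtaccATGcaa
POLE3: gcggcggcaATGgcg
Each of these 5 contexts has A or G at the position 3 bases before the ATG, as had 48 of the 51 replication genes read (94.1%) and 87.5% of 9184 PCGs. A G directly after the ATG was present in 24 of the 51 (47.1%, against 54.5% of the PCGs), among them CDT1, MCM2 and POLE3.

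By the median over the 53 genes, EPKM was highest with PABPC, at 0.0856 (quartiles 0.0344 and 0.127), with 0.0621 in the Input (quartiles 0.0236 and 0.126) and 0.0341 with PABPN (quartiles 0 and 0.0776). The order depended on the summary: the mean EPKM was 0.0957 in the Input, 0.0917 with PABPC and 0.0609 with PABPN. The 15 licensing genes had a higher median in the Input (0.102) than with PABPC (0.0920), but a lower mean (0.0860 against 0.118). Over all PCGs the medians were 0.0501 with PABPC, 0.0273 in the Input and 0.0334 with PABPN. The replication genes were thus above the median PCG with PABPC and in the Input and close to it with PABPN. Editing above 0 was listed for 50 of the 53 in the Input (94.3%, against 78.1% of PCGs), for 45 with PABPC (84.9%, against 82.6%) and for 39 with PABPN (73.6%, against 72.9%). The shares in the IPs were near those of all PCGs. The replication mRNAs were also more abundant than the median PCG, at a median of 37.0 against 15.8 TPM in the Input, and Input EPKM and Input TPM had a Spearman rho of 0.614 over the 53 genes and 0.531 over the 9607 PCGs, across genes that share libraries and depth. The same pair had a rho of 0.412 (PCGs 0.452) with PABPC and -0.103 (PCGs 0.245) with PABPN. The part of abundance in the higher Input editing was not tested.

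Editing was higher with PABPC than with PABPN for 35 of the 53 genes, against 56.4% of PCGs, and higher with PABPN for 15, against 37.4%. The 3 others, GMNN, PCNA and LIG1, were listed at 0 in both IPs. The groups differed: 12 of the 15 licensing genes were higher with PABPC, as were 4 of the 5 of nucleotide supply, but 19 of the 33 fork genes (57.6%), near the share of PCGs. The median difference, PABPC IP minus PABPN IP, was 0.0399 EPKM, against 0.0108 over all PCGs, and 0.0920 for licensing, 0.0184 for the fork (mean -0.00249) and 0.0304 for nucleotide supply. On the log2(EPKM + 0.01) scale, 27 genes (50.9%) were at least 2-fold higher with PABPC, compared with 36.3% of PCGs. At least 2-fold higher editing with PABPN was seen for 10 genes (18.9%), near the 21.1% of all PCGs. These counts depend on the pseudocount: with 0.1 in place of 0.01 they were 9 and 2, and the shares of PCGs were 9% and 3.71%. Of the 3 fractions, the PABPC IP held the highest EPKM for 27 genes (42.6% of PCGs), the Input for 16 (26.6% of PCGs) and the PABPN IP for 10 (28.7% of PCGs).

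**Figure D1:**
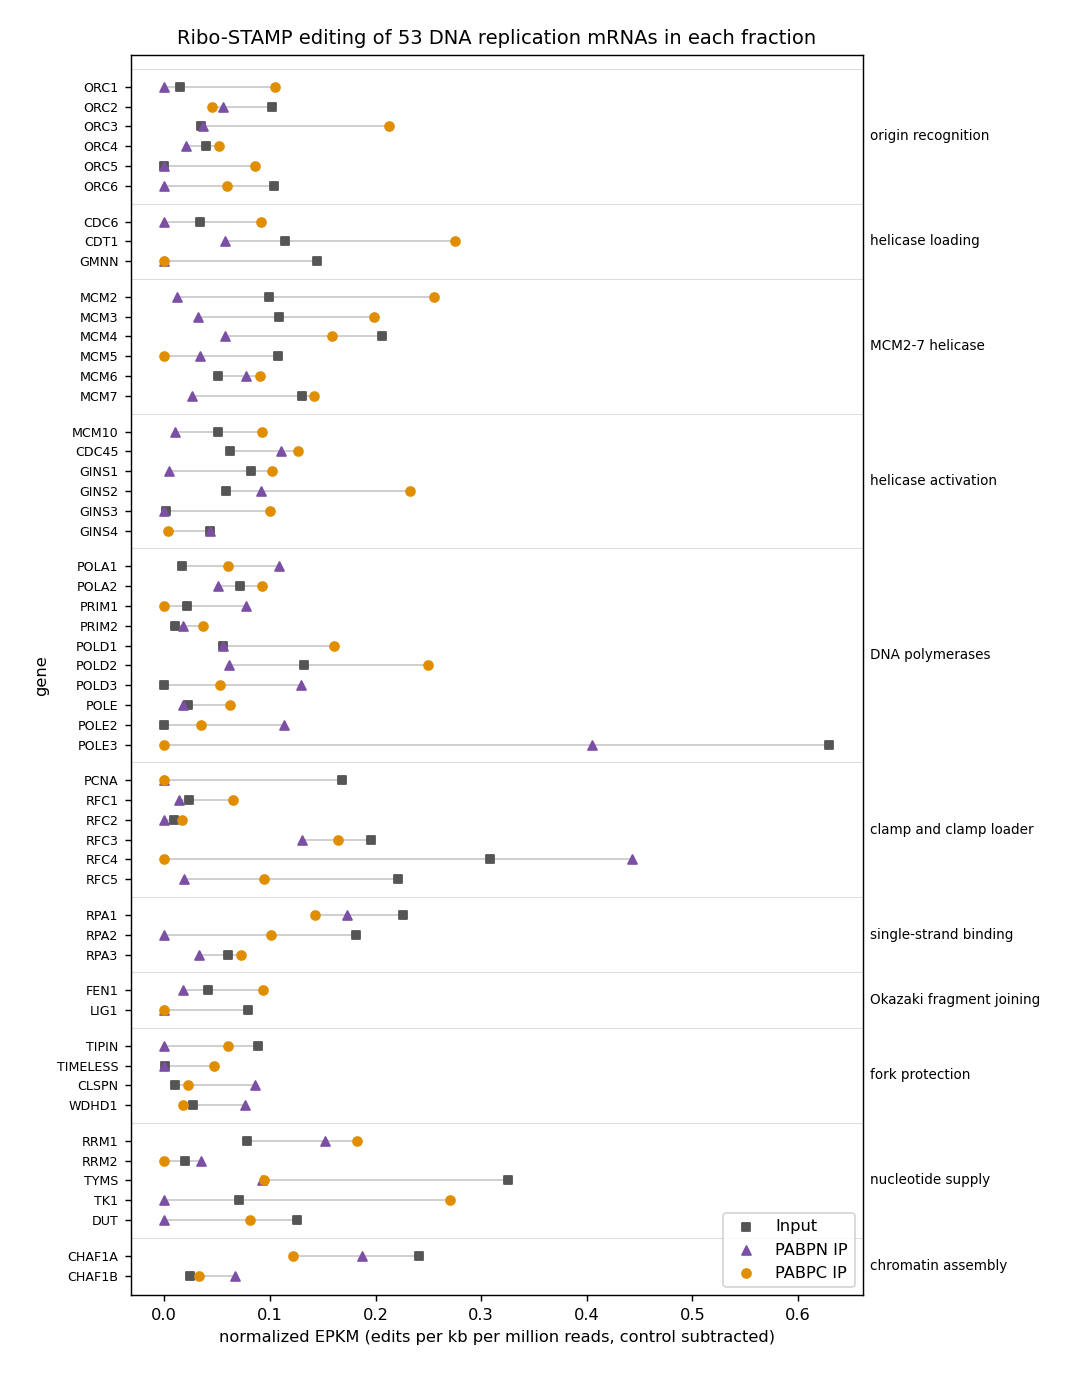
Normalized EPKM (x axis, edits per kb, scaled to mapped reads, with the control subtracted) of each of the 53 genes (y axis, by role) in the Input (squares), PABPN IP (triangles) and PABPC IP (circles), with 1 pooled value per gene and fraction and no error bars because no replicate values were used. POLE3 at 0.630 EPKM in the Input and RFC4 at 0.443 EPKM with PABPN are the highest points of their fractions, and CDT1 at 0.275 EPKM is the highest of the PABPC IP.

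Enrichment with each PABP was described by log2 ratios of the average TPM. Because the ratios of all PCGs were shifted, with medians of 1.14 for PABPN IP over Input, 0.99 for PABPC IP over Input and -0.19 for PABPC IP over PABPN IP, each ratio was centred on its PCG median, and enriched or depleted means above 0.5 or below -0.5 after centring. The TPM of all listed genes summed to 854272 in the Input, 995724 with PABPC and 975719 with PABPN. The ratios to Input share the Input average, and no relation between them was computed. After centring, the median over the 53 genes was -0.51 for PABPN IP over Input and -0.33 for PABPC IP over Input, whereas without centring both were above 0, at 0.63 and 0.66. The replication mRNAs thus had lower ratios to Input than the median PCG in both IPs.

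Relative to all PCGs, 27 of the 53 mRNAs (50.9%) were depleted from the PABPN IP, compared with 21.6% of PCGs, and 3 (ORC6, POLE and RFC1) were enriched there, compared with 24.5%. Without centring, 32 were above 0.5 and 0 were below -0.5, where the median PCG itself lay above 0.5, at 1.14. From the PABPC IP 20 mRNAs (37.7%) were depleted, compared with 18.1% of PCGs, and 2 (POLD2 and RPA3) were enriched, compared with 8.37%. The counts without centring were 33 above 0.5 and 0 below -0.5, where the median PCG also lay above 0.5, at 0.99. With a TPM minimum of 20 or with centring on all genes past the filter, 0 and 1 genes were above 0.5 in place of 2. For PABPC IP over PABPN IP the median was 0.17 after centring and -0.02 without it, and with a TPM minimum of 20 (45 genes) the centred median was 0.00442, so that no direction is given for this ratio. In this ratio 19 genes were above 0.5 (35.8%, against 30.4% of PCGs) and 11 were below -0.5 (20.8%, against 31.5%). Without centring the counts were 15 and 17, with the median PCG at -0.19.

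**Figure D2:**
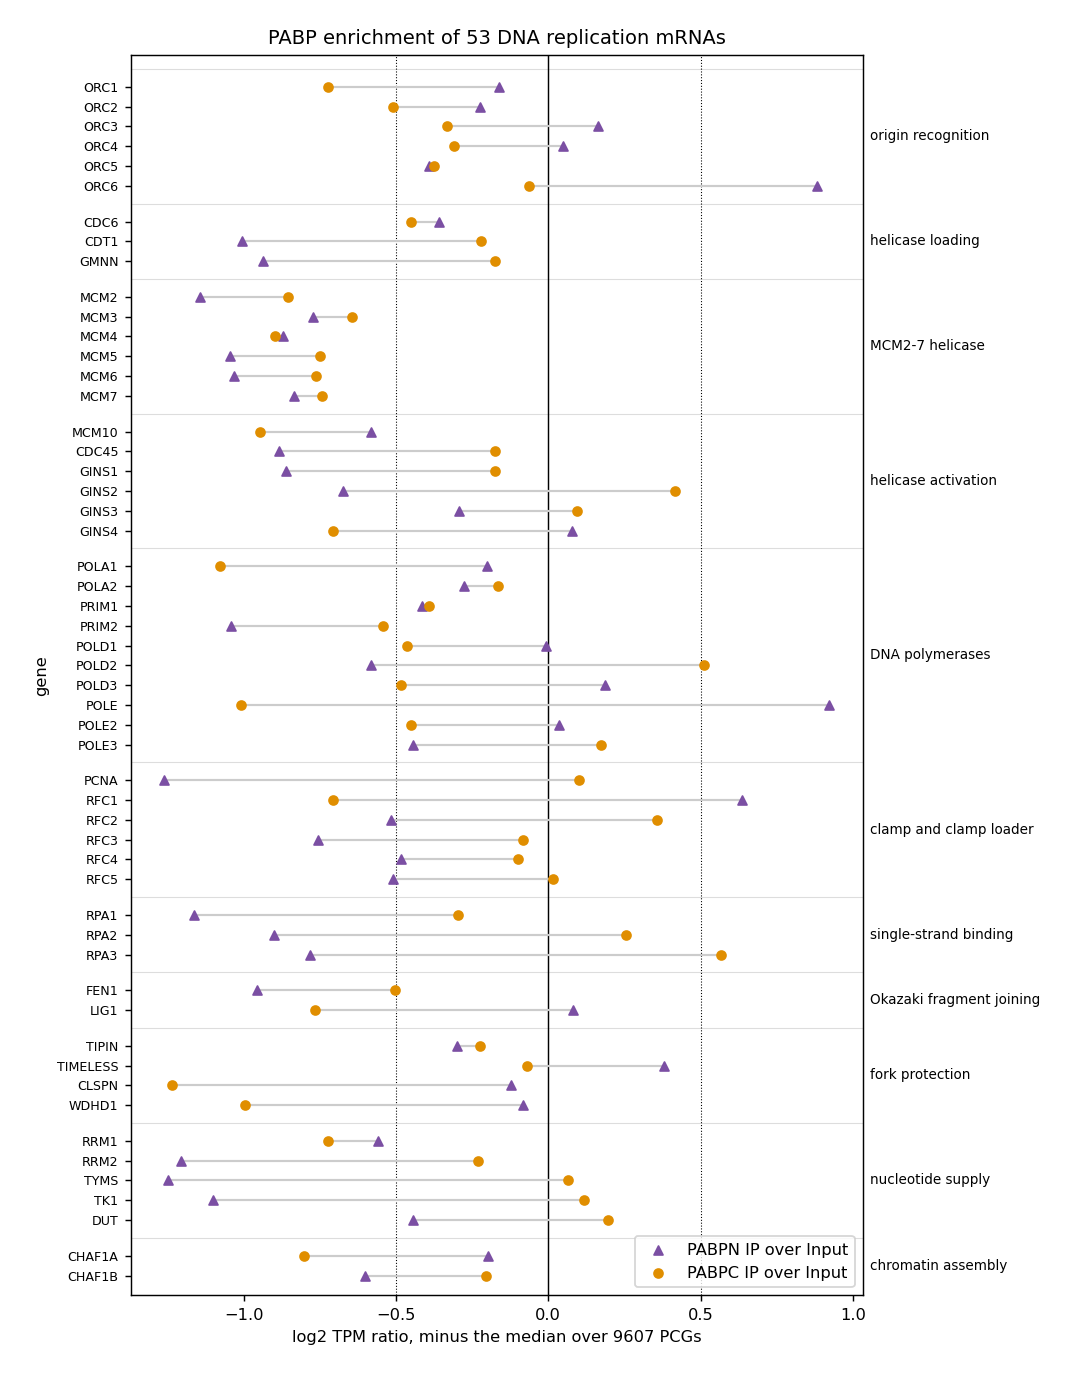
Centred log2 TPM ratios (x axis) of PABPN IP over Input (triangles) and PABPC IP over Input (circles) for each of the 53 genes (y axis, by role), with dotted lines at -0.5 and 0.5 and 1 pooled value per point. The MCM2-7 genes lie between -1.14 and -0.77 in the PABPN ratio and between -0.90 and -0.64 in the PABPC ratio, while POLE lies at 0.92 and -1.01; without centring the MCM2-7 medians are 0.19 and 0.23.

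The origin recognition complex (ORC), the 6-subunit complex that marks where replication can begin, had low to moderate mRNA levels, from 10.1 TPM (ORC4) to 33.5 TPM (ORC1) in the Input. Its median EPKM was 0.0371 in the Input, 0.0723 with PABPC and 0.0103 with PABPN. For 5 of the 6 subunits editing was higher with PABPC than with PABPN, as it was for 56.4% of PCGs. ORC2 was the exception, at 0.0456 against 0.0559 EPKM and 0.102 EPKM in the Input. ORC3 stood out, at 0.213 EPKM with PABPC against 0.0363 with PABPN and 0.0349 in the Input. ORC1, the largest subunit, had 0.104 EPKM with PABPC, 0 with PABPN and 0.0150 in the Input. ORC4 had 0.0519, 0.0206 and 0.0393 EPKM with PABPC, with PABPN and in the Input. ORC5 was listed at 0 in the Input and with PABPN and had 0.0856 EPKM with PABPC, so that of the 3 values only that of the PABPC IP was above 0. ORC6, the smallest subunit, had its highest editing in the Input (0.104 EPKM), against 0.0590 with PABPC and 0 with PABPN. The ORC6 mRNA was nevertheless enriched with PABPN, where its TPM was 83.4 against 20.6 in the Input (centred log2 ratio 0.88). The other 5 subunits had centred ratios from -0.39 to 0.16 with PABPN and from -0.72 to -0.31 with PABPC.

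CDC6 and CDT1 bring the helicase to the origin complex, and geminin (GMNN) binds CDT1 and blocks reloading. CDT1 (ENSG00000167513, chr16:88803789-88809258 on hg38) was the most abundant mRNA of this step, with 148 TPM in the Input, 253 with PABPC and 163 with PABPN. It had the highest PABPC IP editing of all 53 genes, 0.275 EPKM, against 0.0572 with PABPN and 0.114 in the Input. CDC6 had 0.0920 EPKM with PABPC, 0 with PABPN and 0.0336 in the Input. GMNN, the inhibitor, differed from both loaders in that it was listed at 0 in both IPs while its Input value was 0.145 EPKM. Its TPM was 60.2 in the Input, 106 with PABPC and 69.2 with PABPN. CDT1 and GMNN had similar centred ratios with PABPN (-1.01 and -0.94) and with PABPC (-0.22 and -0.18), and without centring those with PABPN were 0.13 and 0.20.

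The MCM2-7 genes encode the 6 related ATPases of the helicase ring, which is built from equal numbers of each subunit. Their Input TPM lay within a 2.62-fold range, from 60.9 (MCM5) to 159.7 (MCM7), with 124 for MCM2, 112 for MCM3, 124 for MCM4 and 74.1 for MCM6. The range was 71.9 to 189 TPM with PABPC and 64.9 to 197 with PABPN. All 6 were depleted from both IPs relative to the median PCG, with centred medians of -0.95 (PABPN IP) and -0.76 (PABPC IP), whereas without centring the medians were above 0, at 0.19 and 0.23. From lowest to highest subunit, the log2 ratios spanned 0.37 with PABPN and 0.25 with PABPC. By comparison the 6 ORC mRNAs spanned 1.27 and 0.66, the 4 GINS mRNAs 0.94 and 1.12, and the 5 RFC mRNAs 1.39 and 1.06. Among the 9 complexes compared by their listed subunits, the MCM2-7 mRNAs had the smallest span in both ratios. The 3 RPA mRNAs were nearly as close with PABPN (0.38) but not with PABPC (0.86). Coding lengths were also alike within MCM2-7, from 2157 (MCM7) to 2712 bases (MCM2), but ran from 1020 (RFC5) to 3441 (RFC1) within RFC. Those of the GINS mRNAs were alike as well, from 555 (GINS2) to 669 bases (GINS4). The part of coding length in these spans was not tested.

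Editing of the MCM2-7 mRNAs was less uniform. The median EPKM was 0.150 with PABPC, 0.108 in the Input and 0.0331 with PABPN. Editing was higher with PABPC than with PABPN for 5 of 6, beside 56.4% of PCGs. MCM2 (ENSG00000073111, chr3:127598410-127622436 on hg38) had 0.255 EPKM with PABPC, 0.0119 with PABPN and 0.0993 in the Input. MCM3 followed at 0.199 EPKM with PABPC, 0.0321 with PABPN and 0.108 in the Input. In MCM7 the PABPC IP and Input values were close, 0.142 and 0.130 EPKM, and the PABPN IP value was 0.0258. For MCM4 the Input was highest, at 0.206 EPKM against 0.159 with PABPC and 0.0572 with PABPN. MCM6 showed little difference between the IPs, at 0.0904 EPKM with PABPC, 0.0776 with PABPN and 0.0506 in the Input. MCM5 went the other way: it was listed at 0 with PABPC and had 0.0341 EPKM with PABPN and 0.108 in the Input, although its PABPC IP TPM was 71.9.

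CDC45 and the 4-subunit GINS complex join MCM2-7 to form the active helicase, a step that MCM10 assists. Editing was higher with PABPC than with PABPN for 5 of the 6 genes of this step, beside 56.4% of PCGs. Their median EPKM was 0.101 with PABPC, 0.0266 with PABPN and 0.0542 in the Input. GINS2 had 0.233 EPKM with PABPC, 0.0913 with PABPN and 0.0580 in the Input. GINS1 had 0.102, 0.00433 and 0.0822 EPKM in the same order, and GINS3 had 0.101, 0 and 0.00119. GINS4 was the exception, at 0.00335 EPKM with PABPC and 0.0433 with PABPN, and its Input value was close to but slightly below that with PABPN. The whole span of GINS4 is shared with other genes in GENCODE release 44. CDC45 was edited to a similar extent in both IPs, 0.127 EPKM with PABPC and 0.110 with PABPN, against 0.0621 in the Input. MCM10 had 0.0921 EPKM with PABPC, 0.00981 with PABPN and 0.0504 in the Input.

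The 4 GINS mRNAs differed in enrichment. GINS2 had 60.2 TPM in the Input, 159 with PABPC and 83.0 with PABPN, which gave a centred PABPC IP over PABPN IP ratio of 1.14. GINS4, whose whole span is shared with other genes, had 18.3 TPM in the Input, 22.2 with PABPC and 42.4 with PABPN. Its ratio was -0.74. GINS1 (0.73) and GINS3 (0.43) lay between them, and uncentred the 4 ratios were 0.94, -0.93, 0.54 and 0.24, with the same signs.

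Replicative DNA synthesis was represented by 10 polymerase and primase subunits. Their median was 0.0566 EPKM with PABPC, 0.0691 with PABPN and 0.0220 in the Input. In each IP 5 of the 10 were higher, beside 56.4% (PABPC) and 37.4% (PABPN) of PCGs. Single subunits differed, with 3 at least 2-fold higher with PABPC and 4 with PABPN, beside 36.3% and 21.1% of PCGs. Polymerase alpha-primase, which lays down the primers, was split: its catalytic subunit POLA1 had 0.109 EPKM with PABPN, 0.0603 with PABPC and 0.0172 in the Input. The accessory subunit POLA2 had 0.0512, 0.0922 and 0.0718 EPKM in the same order, but nearly all of its span is shared with other annotated genes. The primase catalytic subunit PRIM1 was listed at 0 with PABPC and had 0.0769 EPKM with PABPN and 0.0213 in the Input. Its partner PRIM2 was low throughout, at 0.0365 EPKM with PABPC, 0.0182 with PABPN and 0.00994 in the Input.

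Polymerase delta, the main lagging-strand enzyme, showed higher PABPC IP editing in its catalytic subunit POLD1 (0.161 EPKM, against 0.0555 with PABPN and 0.0557 in the Input). The accessory subunit POLD2 was similar, at 0.250 EPKM with PABPC, 0.0612 with PABPN and 0.132 in the Input. POLD3 was opposite in direction, at 0.0530 EPKM with PABPC, 0.129 with PABPN and 0 in the Input. mRNA levels of these partners were unequal: POLD2 had 148 TPM in the Input and 419 with PABPC, and POLD3 had 16.2 and 23.0, and the ratio of highest to lowest over the 3 listed subunits was 9.12 in the Input, 18.2 with PABPC and 5.34 with PABPN. With POLD4, a subunit of low TPM that is not among the 53, these ratios were 63.2, 53.5 and 42.3, so that their order depended on the subunits taken.

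Polymerase epsilon, the leading-strand enzyme, had the widest spread of the 9 complexes in PABPC IP over PABPN IP, 2.55 on the log2 scale over its 3 listed subunits and 3.06 with POLE4, which is not among the 53. Its catalytic subunit POLE (ENSG00000177084, chr12:132623753-132687376 on hg38), with the longest coding sequence of the 53 genes (6858 bases), had 16.8 TPM in the Input, 16.6 with PABPC and 70.3 with PABPN. This was the highest centred PABPN IP ratio (0.92) and the lowest PABPC IP over PABPN IP ratio (-1.89) of the 53. Editing of POLE was nevertheless higher with PABPC (0.0622 EPKM) than with PABPN (0.0177) and in the Input (0.0226). POLE2 was listed at 0 in the Input and had 0.0344 EPKM with PABPC and 0.113 with PABPN. POLE3 (ENSG00000148229, chr9:113407235-113410675 on hg38), a small histone-fold subunit also found in chromatin remodelling complexes, had the highest Input editing of all 53 genes (0.630 EPKM). It had 0.405 EPKM with PABPN and was listed at 0 with PABPC, where its TPM of 374 was above that in the Input (167) and with PABPN (270.3). Other annotated genes share 18.1% of its span.

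**Figure D3:**
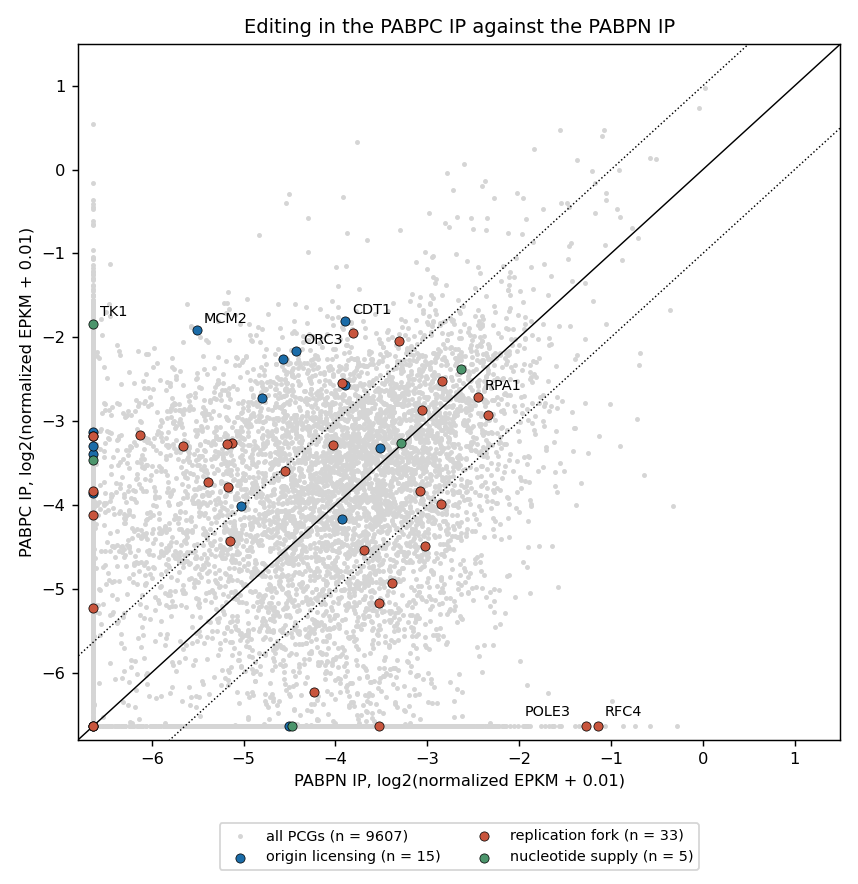
Editing with PABPC (y axis) against editing with PABPN (x axis), both as log2(normalized EPKM + 0.01), for all 9607 PCGs (grey) and the 53 replication genes (coloured by group), with a solid line of equality and dotted lines at 2-fold; points on the left and lower edges are listed at 0. Of the 53 genes, 27 lie on or above the upper dotted line, among them CDT1, TK1, MCM2 and ORC3, and 10 on or below the lower one, among them POLE3 and RFC4.

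PCNA, the sliding clamp that tethers the polymerases, was the most abundant of the 53 mRNAs, with 355 TPM in the Input, 756 with PABPC and 326 with PABPN (ENSG00000132646, chr20:5114953-5126626 on hg38). It was listed at 0 EPKM in both IPs and had 0.168 EPKM in the Input. Of the 53 mRNAs it had the lowest PABPN IP over Input ratio, -1.26 centred and -0.12 uncentred, and the highest PABPC IP over PABPN IP ratio, 1.41 centred and 1.21 uncentred. PCNA has 3 named pseudogenes, and how reads shared with them were assigned is not given in the sources used here.

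The clamp loader RFC opens the clamp and places it on primed DNA. Its large subunit RFC1 and its 4 small subunits RFC2 to RFC5 separated in enrichment: RFC1 had 12.5 TPM in the Input, 15.2 with PABPC and 42.7 with PABPN (centred PABPC IP over PABPN IP ratio -1.30). The small subunits had ratios from 0.43 (RFC4) to 0.92 (RFC2), and their uncentred ratios had the same sign. RFC4 (ENSG00000163918, chr3:186789880-186807058 on hg38) had the highest PABPN IP editing of the 53 genes, 0.443 EPKM, with 0.308 in the Input, and was listed at 0 with PABPC. RFC3 was edited in all fractions, with 0.196 EPKM in the Input, 0.164 with PABPC and 0.130 with PABPN. RFC5 had 0.221 EPKM in the Input, 0.0945 with PABPC and 0.0185 with PABPN. RFC2, the most abundant loader mRNA at 104 TPM in the Input, was by contrast barely edited, with 0.00889 EPKM in the Input, 0.0167 with PABPC and 0 with PABPN. RFC1 had 0.0236, 0.0653 and 0.0139 EPKM in the Input, PABPC IP and PABPN IP.

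Replication protein A (RPA) coats the single strands that the helicase exposes. Its 3 mRNAs were all depleted from the PABPN IP relative to the median PCG, with centred ratios of -1.16 (RPA1), -0.90 (RPA2) and -0.78 (RPA3) that without centring were -0.03, 0.24 and 0.35. With PABPC the centred ratios ran from -0.30 for the largest subunit RPA1 through 0.26 for RPA2 to 0.57 for the smallest, RPA3. RPA1 was edited in each fraction, with 0.226 EPKM in the Input, 0.173 with PABPN and 0.143 with PABPC. RPA2 had 0.181 EPKM in the Input, 0.101 with PABPC and 0 with PABPN. RPA3 was lower than both in the Input (0.0601 EPKM) and with PABPC (0.0725), and with PABPN its 0.0326 EPKM lay between them. Other annotated genes share 94.9% of the RPA3 span.

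FEN1 trims the flaps of Okazaki fragments and LIG1 seals them. FEN1, a gene with 1 intron in its canonical transcript, had 0.0932 EPKM with PABPC, 0.0175 with PABPN and 0.0410 in the Input, though 98.4% of its span is shared with other genes. LIG1 was listed at 0 in both IPs and had 0.0788 EPKM in the Input, at low TPM (11.7 in the Input, 13.7 with PABPC and 27.3 with PABPN). Their PABPC IP over PABPN IP ratios were opposite, 0.50 and -0.80 after centring and 0.30 and -0.997 without.

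Factors that protect or couple the moving fork had Input levels from 10.2 TPM (WDHD1) to 36.5 TPM (TIMELESS), at or below the median of the 53. TIMELESS and its partner TIPIN hold the fork together: TIPIN had 0.0888 EPKM in the Input, 0.0601 with PABPC and 0 with PABPN. TIMELESS had 0.0475 EPKM with PABPC, 0 with PABPN and 0.000432 in the Input. CLSPN, the claspin adaptor of the replication checkpoint, was edited most with PABPN (0.0861 EPKM, against 0.0227 with PABPC and 0.0102 in the Input). WDHD1, which links the helicase to polymerase alpha, was also edited most with PABPN (0.0769 EPKM), but least with PABPC (0.0177, against 0.0273 in the Input). CLSPN and WDHD1 were also depleted from the PABPC IP, with centred ratios of -1.24 and -0.997, and uncentred ones of -0.25 and -0.01, while their PABPN IP ratios were -0.12 and -0.08 centred.

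Behind the fork, the CAF-1 subunits CHAF1A and CHAF1B deposit new histones. CHAF1A was among the most edited mRNAs in the Input (0.241 EPKM) and with PABPN (0.187), against 0.122 with PABPC. CHAF1B was lower, at 0.0674 EPKM with PABPN, 0.0332 with PABPC and 0.0246 in the Input. Both had more editing with PABPN than with PABPC. Their TPM was alike in the Input (34.3 and 31.2), and in the IPs CHAF1A had 65.8 (PABPN) and 39.1 (PABPC) and CHAF1B 45.2 and 53.7.

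The 5 mRNAs of nucleotide supply were short (median coding length 939 bases) and had the lowest PABPN IP ratios of the 3 groups, with a centred median of -1.10 (0.04 uncentred), compared with -0.77 for licensing and -0.44 for the fork (0.36 and 0.69 uncentred). In PABPC IP over PABPN IP their median was 1.02 (0.83 uncentred). TK1, which salvages thymidine, had 0.270 EPKM with PABPC, 0 with PABPN and 0.0703 in the Input (ENSG00000167900, chr17:78174091-78187233 on hg38). TYMS, which makes thymidylate from deoxyuridylate, was instead edited most in the Input (0.325 EPKM) and about equally with PABPC (0.0941) and with PABPN (0.0925). Both mRNAs had a higher TPM with PABPC than with PABPN, 233 against 111 for TK1 and 203 against 90.4 for TYMS. DUT, which removes dUTP, had 0.126 EPKM in the Input, 0.0809 with PABPC and 0 with PABPN.

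Ribonucleotide reductase joins a large subunit, RRM1, and a small subunit, RRM2, whose Input levels were alike (65.2 and 48.9 TPM). With PABPC they were nearly equal (78.3 and 82.7 TPM), while with PABPN RRM1 had 97.4 and RRM2 46.6 TPM. Editing differed more: RRM1 had 0.182 EPKM with PABPC, 0.152 with PABPN and 0.0783 in the Input. RRM2 was listed at 0 with PABPC and had 0.0349 EPKM with PABPN and 0.0193 in the Input. Named pseudogenes number 3 for RRM2, 2 for TYMS and 8 for DUT, and TYMS shares 24.9% of its span with other genes.

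The balance between the IPs went with coding length and intron number. Over the 53 genes, centred PABPC IP over PABPN IP and coding length had a Spearman rho of -0.649, beside -0.621 over the 9601 PCGs with a coding length, across genes measured in the same libraries. With the number of introns of the canonical transcript rho was -0.661 over the 53 genes and -0.369 over 9605 PCGs, and with the span of the gene it was -0.337 and -0.313. The 14 genes with up to 1000 coding bases had a median ratio of 0.77, and 12 of them (85.7%) were above 0, near the 78.9% of PCGs of that length. The 20 genes with more, up to 2000 bases, had 0.47 (15 above 0, 75%, against 49.5% of PCGs), and the 16 genes with over 2000 and up to 4000 bases had -0.36 (6 above 0, 37.5%, against 17.3% of PCGs). The 3 longest, CLSPN, POLA1 and POLE, had a median of -1.07 and none above 0, as was the case for all but 1.89% of PCGs of that class. Among all PCGs the medians of these 4 classes were 0.65, -0.01, -0.65 and -1.47. ORC6 and GINS4 departed from the order, with 756 and 669 coding bases and ratios of -0.90 and -0.74, though the whole GINS4 span is shared with other genes. For editing, the difference in EPKM (PABPC IP minus PABPN IP) and coding length had a rho of -0.0305 over the 53 genes and -0.0777 over 9601 PCGs. Single fractions gave -0.249 in the Input, 0.105 with PABPC and 0.177 with PABPN over the 53 genes, and -0.217, -0.0778 and -0.00799 over the PCGs.

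**Figure D4:**
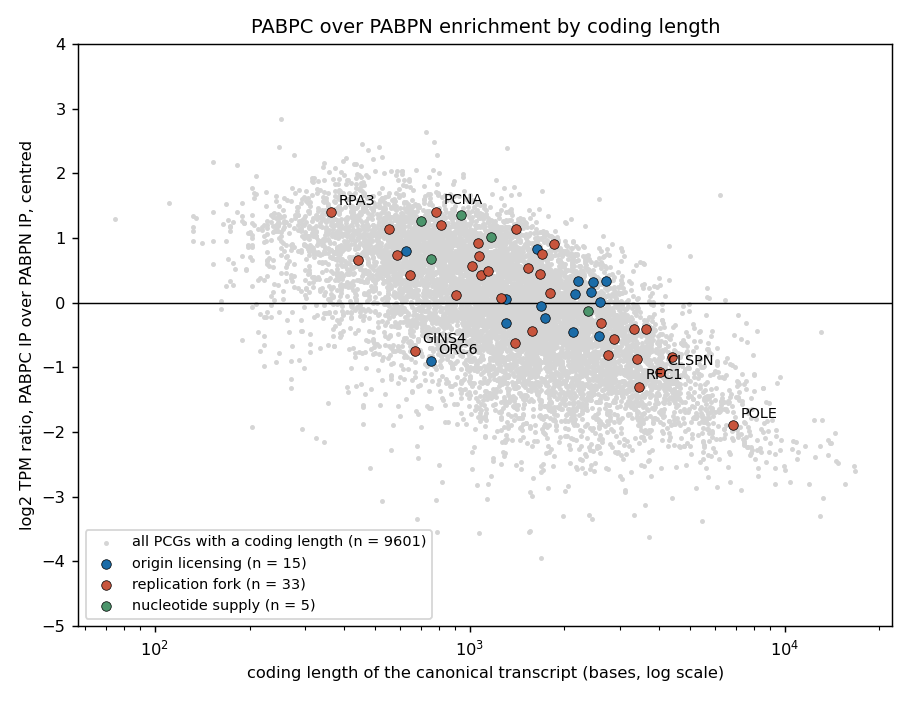
Centred log2 TPM ratio of PABPC IP over PABPN IP (y axis) against the coding length of the canonical transcript (x axis, bases, log scale) for 9601 PCGs (grey) and the 53 replication genes (coloured by group). The replication genes run from 1.41 (PCNA, 783 bases) to -1.89 (POLE, 6858 bases), within the cloud of all PCGs.

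The lower ratios to Input were seen at each length. With PABPN the centred medians of the replication genes in the 4 length classes, from short to long, were -0.73, -0.51, -0.38 and -0.12, and those of all PCGs were -0.31, 0.00, 0.31 and 0.67. With PABPC they were 0.10, -0.26, -0.75 and -1.08 for the replication genes and 0.30, -0.04, -0.37 and -0.81 for all PCGs. The gap to all PCGs was wider with PABPN than with PABPC in each class. The classes hold 14, 20, 16 and 3 replication genes, and the gap was not tested. TPM here sums exonic and intronic reads, and the share of intronic reads in each fraction was not analysed here.

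**Figure D5:**
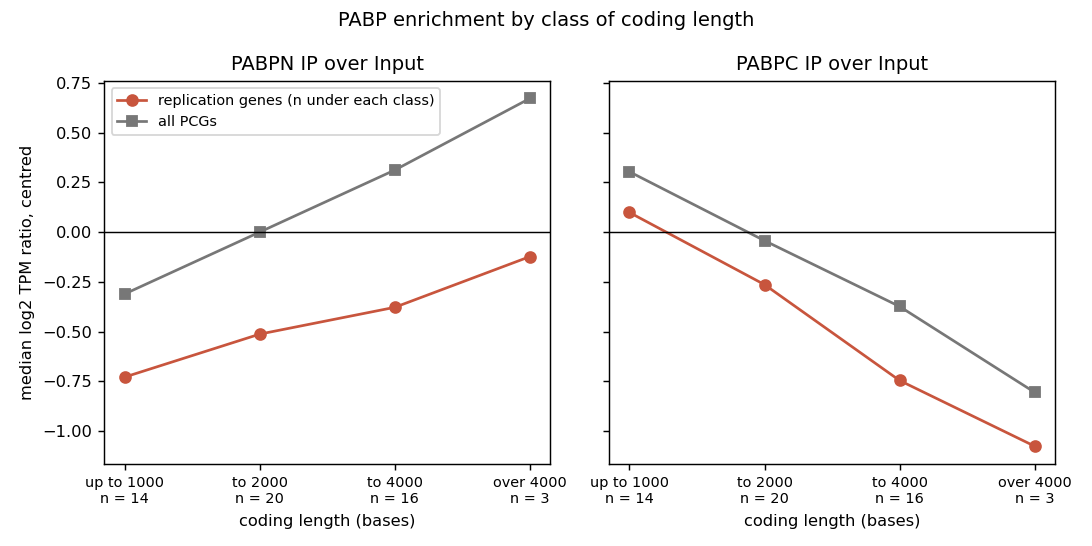
Median centred log2 TPM ratio to Input (y axis) with PABPN (left) and with PABPC (right) by class of coding length (x axis), for the replication genes (circles; 14, 20, 16 and 3 genes) and all PCGs (squares; 3275, 3745, 2052 and 529 genes). The replication genes lie below all PCGs in each class of both panels, for example at -0.38 against 0.31 with PABPN for over 2000 and up to 4000 bases; centring moves both lines alike.

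As a description across genes, the order of the 53 mRNAs by editing differed between the fractions. Spearman's rho of EPKM was 0.245 between Input and PABPC IP, 0.195 between Input and PABPN IP and 0.0687 between the IPs, compared with 0.325, 0.227 and 0.186 over the 9607 PCGs. The points share libraries and the control subtraction, and the counting error of each EPKM is unknown. EPKM and the percentage of C in the coding sequence had a rho of 0.423 with PABPC, 0.218 in the Input and -0.0873 with PABPN over the 53 genes, and of 0.0965, -0.116 and -0.0939 over 9601 PCGs. C is the base that APOBEC1 edits, and its part in the values was not tested.

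Other genes of replication were compared from a list of 52, of which 51 passed the TPM minimum. Their median EPKM was 0.0598 with PABPC, 0.0476 with PABPN and 0.0402 in the Input, with 19 (37.3%) at least 2-fold higher with PABPC and 9 (17.6%) with PABPN, near the 36.3% and 21.1% of PCGs. Their 20 fork genes alone had a median of 0.0351 EPKM with PABPC and 0.0744 with PABPN, with 7 higher with PABPC and 11 with PABPN. The 17 genes of licensing and origin firing had 0.0649 and 0.0430 (12 and 3 higher). Those of nucleotide supply, 14 in number, had 0.0896 and 0.0116 (12 and 1). Over the whole list of 51, 31 were higher with PABPC and 15 with PABPN, beside 56.4% and 37.4% of PCGs. With PABPC, the largest positive differences from PABPN were in NME2 (0.0562 to 0.787 EPKM) and NME1 (0.0125 to 0.241), nucleoside diphosphate kinases of nearly identical sequence whose reads may be mixed, and in the kinase CDK2 (0.00468 to 0.155). The largest negative differences were in the topoisomerases TOP2A (0.288 to 0.115 EPKM) and TOP2B (0.172 to 0.0308) and in the nuclease-helicase DNA2 (0.163 to 0.0256). Centred PABPN IP and PABPC IP ratios had medians of -0.29 and -0.09 over these 51, closer to 0 than the -0.51 and -0.33 of the 53, and 0.85 and 0.90 uncentred.

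Genes of mitosis, which peak later in the cell cycle, were compared as well. The 32 of 34 listed mitotic genes that passed the TPM minimum had a median EPKM of 0.0441 with PABPC and 0.0540 with PABPN. In each IP 16 of them were higher, beside 56.4% (PABPC) and 37.4% (PABPN) of PCGs. Their centred medians were -0.20 with PABPN and -0.61 with PABPC (0.93 and 0.38 uncentred). Their median coding length was 1867.5 bases, against 1581 for the replication genes, and the difference between the lists was not tested. As reference genes, PABPC1 had 0.294, 0.309 and 0.406 EPKM in the Input, PABPN IP and PABPC IP, PABPN1 had 0.235, 0.237 and 0, and RPS2 had 0.126, 0.447 and 0.101. Whether reads of the fusion construct enter the values of RPS2 was not analysed here.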

How the data were processed

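Ribo-STAMP values of 17 HEK293T samples were used as deposited. Alignment by the authors used STAR and hg38, and edits with a confidence score of 0.5 or more were kept. They deposited the normalized EPKM, a background-subtracted signal with no value below 0. How replicates were pooled and how differences below 0 were treated is not given in the sources used here. The deposited TPM averages, recorded here as a score because each is repeated on the 3 lines of a gene, came from featureCounts 2.0.2 (minimum overlap 20) with a custom GENCODE release 34 annotation, from which the authors took out stretches shared by several genes, and readthrough transcripts. Which samples entered each average is not given in the sources used here.

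Computed here were medians, counts past limits (2-fold on log2(EPKM + 0.01), 0.5 on centred log2 TPM ratios) and Spearman correlations across genes, over PCGs that reached 5 TPM in each IP. No test was run, because values are pooled. The calculations were tested on simulated data. All 53 genes were named, with the 3 largest positive and 3 largest negative EPKM differences between the IPs of a second list of replication genes, PABPC1, PABPN1 and RPS2 for reference, and counts and medians of a mitotic list. The members and lists were chosen with earlier results of these data known. GENCODE release 44 gave lengths, introns, positions and overlaps, and RefSeq (GRCh38.p14) the promoters, whose printed windows were checked against hg38. Protein sequences were not used here. Alternatives changed the TPM minimum, the summary, pseudocounts, limits and centring. Python 3.11.15, pandas 2.3.3, NumPy 2.4.6, SciPy 1.17.1 and matplotlib 3.10.9 were used.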

Additional observations from a re-analysis of the deposited data

How the results depend on the processing

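Of 85 recomputed values, 66 kept their direction and lay inside the 95% binomial interval over genes of their main median or within 1.5 times their main count. Of these, 8 could not differ, since all 53 genes pass the main TPM minimum and lowering it leaves their editing values as they are. Without centring, all 3 median TPM ratios reversed, to 0.63 (PABPN IP over Input), 0.66 (PABPC IP over Input) and -0.0206 (PABPC IP over PABPN IP), since the shift of all PCGs was then left in. The numbers above 0.5 and below -0.5 were then 32 and 0, 33 and 0, and, for PABPC IP over PABPN IP below -0.5, 17. With a limit of 1 in place of 0.5, the numbers above and below were 0 and 10 for PABPN IP over Input, 0 and 3 for PABPC IP over Input, and 8 and 3 for PABPC IP over PABPN IP, as a stricter limit passes fewer genes. With an EPKM pseudocount of 0.1, 9 genes passed 2-fold towards PABPC and 2 towards PABPN, the larger pseudocount shrinking folds of low values. A TPM minimum of 20 kept 45 of the 53 genes, with 0 above 0.5 in PABPC IP over Input and 10 above 0.5 in PABPC IP over PABPN IP. Centring on all genes past the filter left 1 gene above 0.5 in PABPC IP over Input. TPM minimums of 1 and none, means, genes above 0 only, a pseudocount of 0.001 EPKM or 1 TPM and a 1.5-fold limit moved no median or count past these bounds. Within its bounds (-0.12 to 0.54, which include 0), the median PABPC IP over PABPN IP was 0.00442 with a TPM minimum of 20, 0.31 with 1 and 0.39 with none. No paired analysis was possible because each column holds 1 pooled value per gene, and for the same reason no replicate could be left out. The files hold no counts per gene, so the counting error of each EPKM, and of each value listed at 0, cannot be given.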
